A study of Capra hircus with 20 samples.

Results

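This report describes the genes of the neurotrophins and their receptors in the goat hypothalamus after birth. The members were 7 genes chosen by name, BDNF, NTF3, NTRK2, NTRK3, NGFR, SORT1 and MAGED1, out of 21071 genes with values, and all 7 were found by their NCBI Gene ID in the annotation of the goat genome ARS1.2. RNA was sequenced from the hypothalamus of 20 female Jining grey goats kept under the same conditions, with 5 goats each at 1 day (D1), 60 days (M2), 120 days (M4) and 180 days (M6) of age. Each goat gave 1 strand-specific library from which rRNA had been removed. The values are FPKM, the fragments of a gene scaled to exon length and sequencing depth, so levels of different genes can be compared. Libraries are named here by stage and replicate number, so that M4-1 is the first library of M4.

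Neurotrophins are secreted growth factors that keep neurons alive and shape their axons and synapses. Each mature neurotrophin acts through a receptor tyrosine kinase of the Trk family. BDNF and NT-4 bind TrkB (NTRK2), and NT-3 (NTF3) binds TrkC (NTRK3). They also bind the receptor p75NTR (NGFR), which, together with sortilin (SORT1), binds the uncleaved precursors. MAGED1, also called NRAGE, is an intracellular protein that binds p75NTR. In the hypothalamus BDNF and TrkB are known for their part in the control of feeding and body weight, and TrkB is made by both neurons and astrocytes.

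The label of the tissue was checked against marker genes first, because the libraries differed widely in them. AVP and OXT, the hormone genes of magnocellular neurons, reached 10 FPKM in the same 5 libraries (D1-1, M4-4, M6-2, M6-4 and M6-5) and in no M2 library. SIM1, a transcription factor of the paraventricular nucleus, reached 1 FPKM in 7 of 20 libraries, while GHRH and KISS1 reached it in 0. The 15 hypothalamus markers summed to between 4.97 and 528 FPKM at D1, 11.2 and 39.7 at M2, 2.74 and 494 at M4, and 6.28 and 918 at M6. The 6 striatum markers summed to 719 FPKM in D1-4, 185 in M2-4 and 354 in M6-2, and to at most 19.3 in the other libraries. M4-1 held 68.02 FPKM of SLC17A7 and 23.7 FPKM of NEUROD6, markers of cortical excitatory neurons, against at most 1.07 and 1.26 FPKM elsewhere. The 6 thalamus markers were highest in M4-2, with a sum of 195 FPKM, of which TCF7L2 gave 86.3. The 12 neuron markers were lowest in M6-3 (99.8 FPKM), M2-1 (287) and M2-3 (650), against 810.1 or more in each other library. In M2-3 a single gene, KLHDC1, took 23.9% of the summed FPKM. Its share was 9.83% in M6-3 and 4.73% in M6-5, the next highest. These libraries are named beside the results they touch, and their part in those results was not tested. Fewer cells of a type and less RNA per cell cannot be told apart in such samples.

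**Figure D1:**
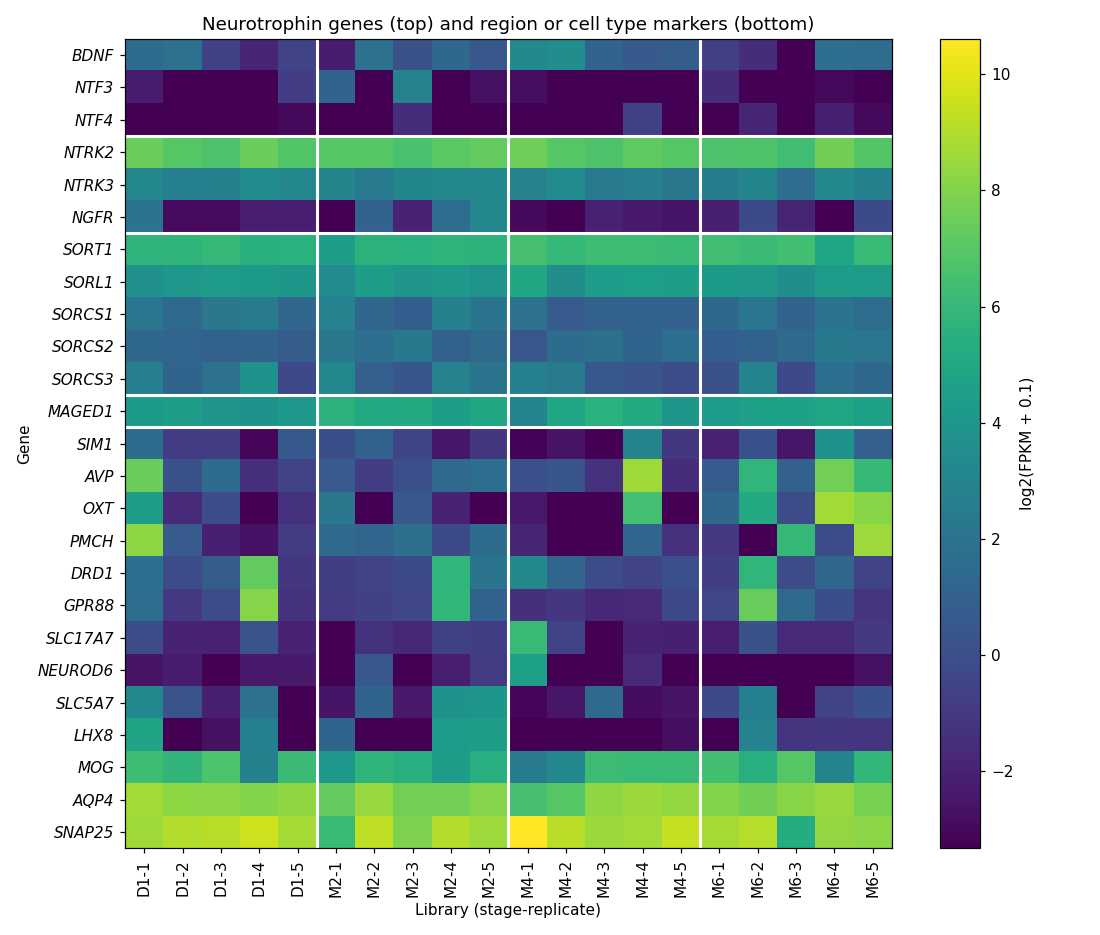
Map of log2(FPKM + 0.1) in the 20 libraries (columns, grouped by stage) for ligands, receptors, sortilin family and MAGED1 (rows above the lowest white line) and for markers of regions and cell types (rows below it). NTRK2 and SORT1 are bright in all columns, while NGFR is brightest in D1-1, M2-4 and M2-5, and AVP and OXT are bright in 5 columns.

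None of the 7 genes was a differentially expressed gene (DEG) in any comparison between stages. A gene counted as a DEG when limma on log2(FPKM + 0.1) gave a log2 fold change of 1 or more in either direction and its Benjamini-Hochberg adjusted p, over the 16771 genes tested, fell under 0.05. The share of all tested genes that passed was 0% in either direction in M2 vs. D1, M4 vs. M2, M6 vs. M4 and M6 vs. M2. It was 0% higher and 0.0537% lower in M4 vs. D1, 0% higher and 0.00596% lower in M6 vs. D1, and 0% higher and 0.0596% lower when the mean of the 3 later stages was compared with D1. The F-test of the 4 stages called 0.00596% of all genes and 0 members. The test thus called almost nothing in this tissue, and the members' count of 0 does not set them apart. At an unadjusted p under 0.05, MAGED1 was higher in M2 vs. D1, where 6.25% of all genes were higher and 9.35% lower. In M4 vs. M2, SORT1 was higher (3.95% of all genes) and NTF3 and NGFR were lower (4.72%). BDNF was lower in M6 vs. M4, with 3.99% of all genes higher and 2.88% lower. MAGED1 was higher in the later stages vs. D1 (4.71% higher and 7.04% lower). None of the 7 had such a p in M4 vs. D1 (2.50% of all genes higher and 6.21% lower), M6 vs. D1 (3.33% and 4.08%) or M6 vs. M2 (3.26% and 2.89%). By the F-test it was reached by SORT1 alone, against 10.4% of all genes. Groups without overlap were found for SORT1 in M4 vs. D1 and M4 vs. M2 and for MAGED1 in M2 vs. D1. The share of all genes without overlap was 1.50% higher and 2.32% lower in M2 vs. D1, 0.537% and 0.549% in M4 vs. M2, and 0.405% and 1.52% in M4 vs. D1. It was 0.459% and 0.316% in M6 vs. M4, 1.36% and 1.48% in M6 vs. D1, and 0.513% and 0.244% in M6 vs. M2, with 0 members. In the later stages together against D1 it was 0.0179% and 0.125%, also with 0 members.

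**Figure D2:**
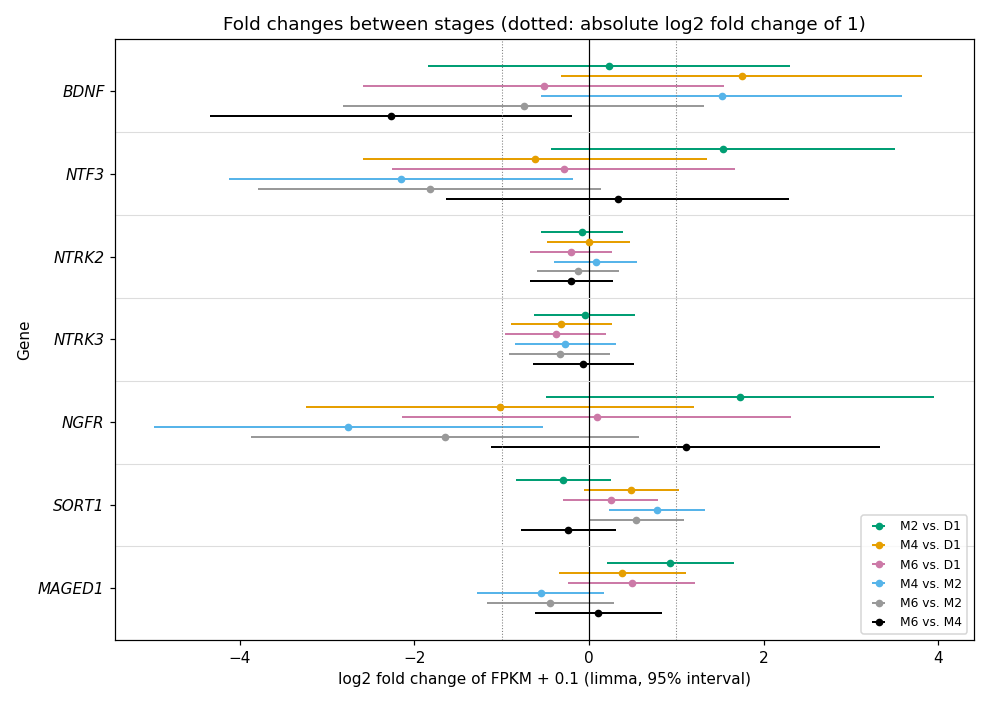
Log2 fold changes of the 7 genes in the 6 comparisons of stages by limma (points) with 95% confidence intervals (bars). The intervals of NTRK2 and NTRK3 all include 0 and lie within 1 of it, while those of BDNF, NTF3 and NGFR span several units.

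BDNF, the ligand of TrkB, lies on chromosome 15 from 24503955 to 24565888. Its FPKM was 2.93, 3.58, 0.539, 0.170 and 0.632 in D1-1 to D1-5. The M2 libraries held 0.106, 3.66, 1.01, 2.53 and 1.27 FPKM. At M4 the values were 9.82, 11.5, 2.02, 1.36 and 1.60 FPKM. BDNF was therefore high in 2 of the 5 M4 libraries, M4-1 and M4-2, and the other M4 libraries lay within the range of D1 and M2. The M6 libraries held 0.530, 0.247, 0, 3.32 and 3.02 FPKM, the 0 being that of M6-3, the library with the lowest neuron markers. The groups of any 2 stages overlapped. The log2 fold change in M6 vs. M4 was -2.27 (standard error 0.99, adjusted p = 0.700 by limma), and in M4 vs. D1 it was 1.75 (standard error 0.99, adjusted p = 0.654). M4-1 was the library with SLC17A7 and NEUROD6, and M4-2 the one highest in TCF7L2. Without the 5 libraries over 100 FPKM of striatum, cortex or thalamus markers, M4-1 and M4-2 among them, these log2 fold changes were -0.94 and 0.20. Since M4-1 and M4-2 held the high values, smaller changes followed from leaving them out. The set also held D1-4, the lowest D1 library, M2-4 and M6-2, and without D1-4 alone M4 vs. D1 gave 1.25. Whether the region markers bear on BDNF was not tested. Without M6-3 the value in M6 vs. M4 was -1.54. The mapping rate moved M4 vs. D1 the other way and left M6 vs. M4 at -2.27. With the mapping rate of each library as a covariate M4 vs. D1 gave 3.30 (adjusted p = 0.352 by limma), and with the replicate number as a block besides it gave 3.78 (adjusted p = 0.262). Library quality weights gave 0.86 in M4 vs. D1 and -1.76 in M6 vs. M4, both smaller in size than without weights. The later stages vs. D1 gave 0.49, against 2.26 with the mapping rate and 2.81 with the block besides, and none of these passed the threshold.

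**Figure D3:**
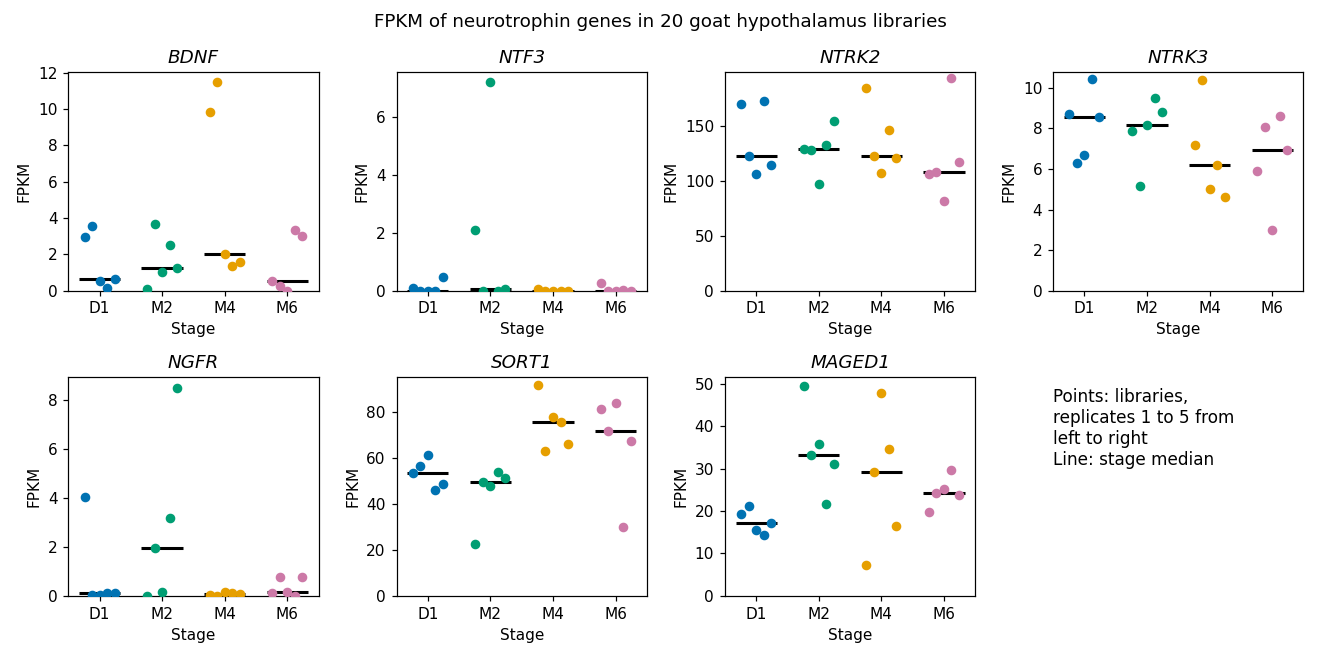
FPKM of each of the 7 genes by stage, with 1 point per library (5 per stage) and a line at the stage median. M4-1 and M4-2 stand at 9.82 and 11.5 FPKM of BDNF, the 5 M4 libraries of SORT1 lie above all D1 and M2 libraries, and the 5 M2 libraries of MAGED1 lie above all D1 libraries.

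NTF3, the gene of NT-3, lies on chromosome 5 from 103662256 to 103739333 and was close to the limit of what these data show. Only 8 libraries had a value above 0, and the gene passed the filter of 0.1 FPKM with exactly the 5 libraries it asks for. Values at or above 1 FPKM were found in M2-3 and M2-1, with 7.22 and 2.08 FPKM. Next came D1-5 with 0.480, M6-1 with 0.255 and D1-1 with 0.106 FPKM. M2-5, M4-1 and M6-4 held 0.0525, 0.0410 and 0.0236 FPKM, and the 12 others were listed at 0. The 2 libraries over 1 FPKM were the M2 libraries with the lowest neuron markers. M6-3, the lowest of all libraries in those markers, was listed at 0. The 7 markers of mural and meningeal cells summed to 352 FPKM in M2-3, 228 in M2-1, 409 in D1-5, 185 in M6-1 and 166.3 in D1-1. Those were the 5 highest sums of all libraries, with 166.1 FPKM in M2-5 next. Other lists of markers were summed as well, and this one was not picked by a test, so the match is no result. In M2-1 RGS5 alone gave 165 FPKM of the sum. There PDGFRB, ACTA2, COL1A2 and LUM were also above their medians over the 20 libraries. COL1A1 and DCN were below theirs, with 15.4 FPKM of DCN against a median of 22.1. Whether either set of markers bears on NTF3 was not tested. By limma NTF3 differed between M4 and M2 by -2.15 on the log2 scale (standard error 0.94, adjusted p = 0.557), or by -0.94 with a pseudocount of 1 and -3.50 with one of 0.01. Without M2-3 it was -1.17. Without the 3 libraries lowest in neuron markers it was -0.10. That set holds M2-1 and M2-3, the 2 libraries over 1 FPKM, so a value near 0 was fixed by leaving them out. With library quality weights the value in M4 vs. M2 was -0.90. Without the 5 libraries with striatum, cortex or thalamus markers it was -2.81.

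NTF4, the gene of NT-4, the other ligand of TrkB, was listed at 0 in 14 of the 20 libraries, reached 0.576 FPKM in M4-4 and did not pass the filter. In terms of FPKM, BDNF was higher than NTF3 in 17 libraries, lower in 2 (M2-1 and M2-3) and listed at 0 with it in 1 (M6-3).

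NTRK2, the gene of TrkB, was the most abundant member, with a mean of 131 FPKM over the 20 libraries, higher than 98.4% of the genes tested. It lies on chromosome 8 from 77712775 to 78114798. Its FPKM was 171, 123, 107, 173 and 114 at D1 and 129, 129, 97.5, 133 and 155 at M2. The M4 libraries held 185, 123, 107, 147 and 122 FPKM and the M6 libraries 107, 109, 81.7, 194 and 118. All 4 stages overlapped, and the highest library exceeded the lowest by 2.38 times. The lowest was M6-3 and the highest M6-4, both of the same stage. The SD of log2(FPKM + 0.1) within stages was 0.342, against a median of 0.568 over all genes tested, and 16.8% of those genes had a smaller SD. From D1 to M6, the stage means with their SDs (n = 5) were 137 ± 31.9, 129 ± 20.6, 137 ± 30.5 and 122 ± 42.6 FPKM. Between the later stages and D1 the log2 difference was -0.10 (95% confidence interval -0.48 to 0.29, adjusted p = 0.872 by limma). In the 6 comparisons of stages the intervals reached from -0.68 at the lowest to 0.55 at the highest. The FPKM of a gene adds up all of its transcripts, so the receptor with a kinase and the truncated receptor of astrocytes were not told apart.

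NTRK3, the gene of TrkC, lies on chromosome 21 from 18130006 to 18546325. Its FPKM was 8.70, 6.31, 6.69, 10.4 and 8.55 at D1 and 7.86, 5.15, 8.18, 9.50 and 8.81 at M2. At M4 it was 7.18, 10.4, 5.01, 6.21 and 4.60 FPKM and at M6 5.89, 8.07, 3.005, 8.62 and 6.91. Again the stages overlapped, and the lowest value was that of M6-3. The stage means, in order of age, were 8.14 ± 1.67, 7.90 ± 1.66, 6.68 ± 2.31 and 6.50 ± 2.22 FPKM (SD, n = 5). The log2 difference between the later stages and D1 was -0.25 (95% confidence interval -0.72 to 0.22, adjusted p = 0.690 by limma), and that of M6 vs. D1 was -0.38 (adjusted p = 0.761).

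Within a library NTRK2 always exceeded NTRK3, by between 11.8 times in M4-2 and 27.2 times in M6-3, with a median of 17.9. By age, the mean ratio was 17.0 ± 2.61, 17.0 ± 4.98, 21.8 ± 5.91 and 19.7 ± 5.30 (SD, n = 5), and the stages overlapped. The transcript of TrkB thus exceeded that of TrkC in all 20 libraries. NTRK2 and NTRK3 varied together to some extent, with a Pearson's r of 0.544 and a Spearman's rho of 0.522 over the 20 libraries. This is a description of libraries that differ in the tissue markers given above.

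NGFR, the gene of p75NTR, was present in a few libraries and close to 0 in the rest. It lies on chromosome 19 from 36738145 to 36757801. Its FPKM was 4.04, 0.0303, 0.0317, 0.125 and 0.125 at D1, so that D1-1 held nearly all of it. At M2 it was 0, 1.97, 0.153, 3.16 and 8.51 FPKM, with 3 of the 5 libraries above 1. The M4 libraries held 0.0294, 0, 0.141, 0.0991 and 0.0698 FPKM and the M6 libraries 0.138, 0.781, 0.169, 0 and 0.764. M4 vs. M2 gave a log2 fold change of -2.75 (standard error 1.07, adjusted p = 0.520 by limma). For M2 vs. D1 the value was 1.73, with the same standard error (adjusted p = 0.434). The M2 and M4 groups overlapped, because M2-1 was listed at 0. Without M2-5 the value in M4 vs. M2 was -2.01, and without M2-1 it was -3.61. Without D1-1 the value in M2 vs. D1 was 2.65, without M2-1 it was 2.59 and without M2-5 it was 0.99. Without the 3 libraries lowest in neuron markers, M2-1 among them, the values were -4.60 in M4 vs. M2 and 3.58 in M2 vs. D1. Without the 5 libraries with striatum, cortex or thalamus markers they were -2.03 and 1.204. Library quality weights gave -4.37 and 3.30 (adjusted p = 0.377 and 0.0811 by limma). With a pseudocount of 1 they were -1.32 and 0.86, and with the mapping rate -3.13 and 2.96.

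Of the genes most like NGFR over the 20 libraries, GBX1, a homeobox transcription factor, had a Pearson's r of 0.831 and a Spearman's rho of 0.713, and SAMD3 had 0.802 and 0.502. The 6 highest libraries of NGFR were M2-5, D1-1, M2-4, M2-2, M6-2 and M6-5, and in D1-1, M2-4, M2-5 and M6-2 it held 4.04, 3.16, 8.51 and 0.781 FPKM. SLC5A7 and SLC18A3, which carry choline and acetylcholine in cholinergic neurons, CHAT, which makes acetylcholine, and LHX8, a transcription factor of basal forebrain cholinergic neurons, were looked up after these values were seen. The 4 libraries named are those with SLC5A7 at or above 5 FPKM, where it held 9.13, 13.6, 15.9 and 6.47 FPKM. The set thus follows SLC5A7 and not NGFR, so its match with SLC5A7 is no result. By NGFR at or above 1 FPKM, the 4 libraries would be D1-1, M2-2, M2-4 and M2-5. In D1-1, M2-4, M2-5 and M6-2, LHX8 held 28.5, 20.3, 22.1 and 7.06 FPKM. M2-2, outside that set, held 1.97 FPKM of NGFR and 2.13 of SLC5A7, with LHX8 listed at 0. M6-5 held 0.764 FPKM of NGFR and 1.04 of SLC5A7. CHAT was highest in M4-3, with 6.002 FPKM, where NGFR held 0.141, and SLC18A3 held 1.02 FPKM there. In D1-1, M2-4, M2-5 and M6-2, CHAT held 1.01, 2.69, 4.11 and 1.24 FPKM, and SLC18A3 1.12, 2.08, 2.29 and 0.547. D1-4 held 6.28 FPKM of LHX8, 3.58 of SLC5A7 and 0.125 of NGFR. Whether these values come from the hypothalamus or from tissue beside it was not tested.

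**Figure D4:**
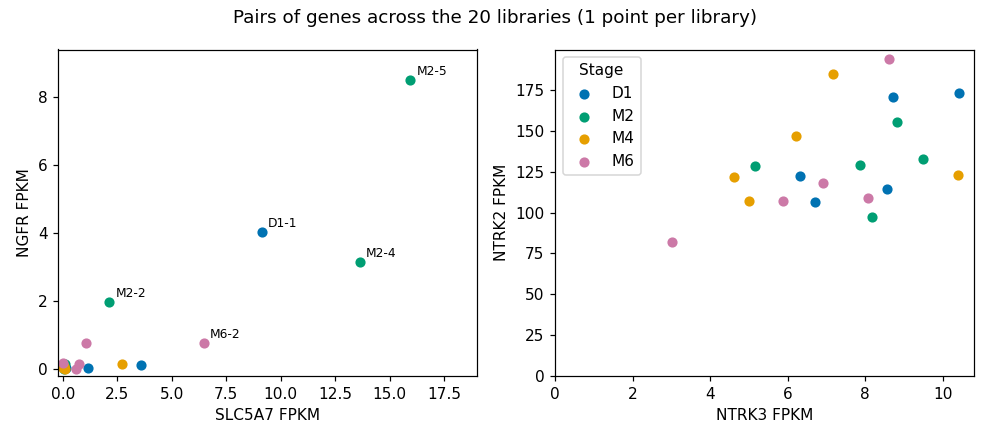
FPKM of NGFR against SLC5A7 (left), and of NTRK2 against NTRK3 (right), with 1 point per library coloured by stage. D1-1, M2-4 and M2-5 lie high on both axes of the left panel, and NTRK2 lies far above NTRK3 in all libraries. SLC5A7 was chosen after these values were seen, so the match in the left panel is no result.

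SORT1, the gene of sortilin, lies on chromosome 3 from 86432656 to 86499376. Its FPKM was 53.5, 56.4, 61.03, 46.1 and 48.4 at D1. At M2 it was 22.7, 49.4, 47.9, 53.98 and 51.3 FPKM, with M2-1 far below the others. At M4 it was 91.5, 62.95, 77.7, 75.5 and 65.8 FPKM. All 5 M4 libraries were thus above all D1 and all M2 libraries. Such groups without overlap, with M4 higher, were found for 0.405% of all genes in M4 vs. D1 and 0.537% in M4 vs. M2. The M6 libraries held 81.1, 71.7, 83.9, 29.7 and 67.4 FPKM, so that 4 of them lay in the range of M4 and M6-4 lay below all D1 libraries. In order of age, the means were 53.1 ± 6.02, 45.05 ± 12.7, 74.7 ± 11.3 and 66.8 ± 21.8 FPKM (SD, n = 5). The log2 fold change was 0.78 in M4 vs. M2 (standard error 0.26, 95% confidence interval 0.23 to 1.32, unadjusted p = 0.00738, adjusted p = 0.499 by limma). In M4 vs. D1, which shares the M4 libraries, it was 0.49 (adjusted p = 0.624). Neither passed the threshold. Leaving out the 5 libraries with striatum, cortex or thalamus markers gave 0.84 and 0.41. Library quality weights gave 0.56 and 0.40, and quantile normalization 0.59 and 0.61. In M4 vs. M2, leaving out 1 library at a time gave between 0.55 (without M2-1) and 0.86 (without M2-4). Without the 3 libraries lowest in neuron markers, M2-1 among them, M4 vs. M2 gave 0.52.

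The other sortilin family receptors were lower. SORL1 held between 10.6 and 32.1 FPKM, SORCS1 between 1.48 and 7.17, SORCS2 between 1.26 and 4.86, and SORCS3 between 0.731 and 14.4. Of the summed FPKM of these 5 genes, SORT1 took 65.3% ± 7.06, 59.8% ± 10.2, 71.7% ± 2.97 and 69.1% ± 13.1 (SD, n = 5) by age. No DEG was found among the 4 other genes by limma with Benjamini-Hochberg adjustment, and the smallest adjusted p of the F-test among those 4 was 0.582, for SORCS1. That of SORT1 was 0.471.

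MAGED1 lies on chromosome X from 14646763 to 14730609. Its FPKM was 19.3, 21.3, 15.5, 14.2 and 17.2 at D1, the narrowest range of any stage. At M2 it was 49.5, 33.3, 35.9, 21.7 and 31.02 FPKM, and all 5 libraries were above all D1 libraries, though by little at the nearest pair. Groups of M2 and D1 without overlap, with M2 higher, were found for 1.50% of all genes. At M4 the values were 7.30, 29.1, 47.9, 34.7 and 16.6 FPKM, which holds both the lowest value of all 20 libraries, in M4-1, and one of the 2 highest, in M4-3. The M6 libraries held 19.9, 24.3, 25.2, 29.7 and 23.8 FPKM. In order of age, the means were 17.5 ± 2.85, 34.3 ± 10.03, 27.1 ± 15.8 and 24.6 ± 3.50 FPKM (SD, n = 5). By limma MAGED1 differed between M2 and D1 by 0.93 on the log2 scale (standard error 0.35, 95% confidence interval 0.21 to 1.66, unadjusted p = 0.0145, adjusted p = 0.228), which missed the threshold. The difference of the later stages vs. D1 was 0.60 (95% confidence interval 0.0085 to 1.195, adjusted p = 0.422). With the mapping rate of each library as a covariate, the value in M2 vs. D1 was 0.24 (adjusted p = 0.925). With that covariate and the replicate number as a block it was 0.01, and the difference of the later stages vs. D1 changed sign.

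By mean FPKM over the 20 libraries the order was NTRK2 (131), SORT1 (59.9), MAGED1 (25.9), NTRK3 (7.30), BDNF (2.49), NGFR (1.02) and NTF3 (0.513). Neighbours in this order were set against each other within libraries. NTRK2 was above SORT1 in 19 of 20 libraries, SORT1 above MAGED1 in 19 and MAGED1 above NTRK3 in 20. M6-3 was the exception for the first pair and M2-1 for the second. NTRK3 was above BDNF in 18 libraries, the others being M4-1 and M4-2. BDNF was above NGFR in 15 libraries and NGFR above NTF3 in 13, so the lowest 3 genes had no fixed order. The 2 classes also differed in spread. The SD within stages on the log2 scale was 1.73 for BDNF, 1.60 for NTF3 and 1.84 for NGFR, and at least 96.9% of all genes tested had a smaller one. For NTRK3, SORT1 and MAGED1 it was 0.438, 0.424 and 0.591, near or below the median of all genes.

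The genes most like each of the other members over the 20 libraries were chosen by Pearson's r of log2(FPKM + 0.1). BDNF was most like NPTXR, a receptor of neuronal pentraxins at synapses (r = 0.880), MAFG (0.872) and TBC1D9 (0.872). NTF3 was most like LOC102191624 (0.873), MLXIPL (0.871) and ADGRA2 (0.850), and without M2-3 the r values were 0.785, 0.710 and 0.680. Their Spearman's rho over the 20 libraries was only 0.523, 0.477 and 0.635, and NTF3 was above 0 in only 8 libraries. NTRK2 was most like PCDH20, a protocadherin (0.931), CADM1, a cell adhesion molecule (0.889), and XPR1, a phosphate exporter (0.863). For NTRK3 they were DOK7 (0.885), FGFBP3 (0.847) and ADGRL2 (0.839). For SORT1 they were CDK8 (0.846), TMEM132B (0.839) and EPHX4 (0.826), and for MAGED1 they were CAMKMT (0.938), SH3PXD2B (0.918) and DCP1B (0.915). With the stage means removed, r was between 0.786 and 0.934 over the 20 genes named here, GBX1 and SAMD3 included. These genes were chosen for a high r in the same libraries, so that range was largely fixed by the choice and is no separate check. All points share the differences between libraries described above.

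The neurotrophin pathway and the other neurotrophic factor families were followed through 115 further genes, of which 110 passed the filter. None was a DEG in any of the 6 comparisons, in the later stages vs. D1 or by the F-test, in limma with Benjamini-Hochberg adjustment. At an unadjusted p under 0.05, 10 were higher and 7 lower in M2 vs. D1, 5 and 9 in M4 vs. M2, 2 and 4 in M6 vs. M4, 2 and 5 in M4 vs. D1, 1 and 4 for M6 against D1, 0 and 4 for M6 against M2, and 6 and 9 in the later stages vs. D1. The F-test gave 10 of 110. Over all genes tested the shares at that p were 6.25% higher and 9.35% lower in M2 vs. D1, 3.95% and 4.72% in M4 vs. M2, 3.99% and 2.88% in M6 vs. M4, and 2.50% and 6.21% in M4 vs. D1. For M6 they were 3.33% and 4.08% against D1 and 3.26% and 2.89% against M2. They were 4.71% and 7.04% in the later stages vs. D1, and 10.4% by the F-test. The counts of the single lists that follow are for M2 vs. D1 and are read against the same shares. In the comparison of M2 with D1 their median log2 fold change was -0.0018, against -0.070 for all genes tested. Of the 21 adaptors of Trk receptors, such as SHC and FRS proteins, 3 were higher and 1 lower in M2 vs. D1 at that p. The smallest adjusted p of the F-test among them was 0.400, for SH2B2. Of the 19 genes of the RAS and MAP kinase branch, 0 were higher and 3 lower, and the smallest adjusted p of the F-test was that of NRAS, 0.464. Of the 15 genes of the PI3K and AKT branch, 3 were higher and 0 lower. The smallest adjusted p was that of IRS1, an insulin receptor substrate, with 0.438 by the F-test and 0.164 in M2 vs. D1. Of the 10 partners of p75NTR, 1 was higher and 1 lower, and LINGO1, which forms a receptor complex with p75NTR, had the smallest adjusted p of the F-test (0.417). Of the 13 genes that process proneurotrophins, 11 passed the filter, with 1 higher and 1 lower, and the smallest was that of the plasminogen activator gene PLAU (0.400). The 12 response genes of BDNF and TrkB had 0 in either direction, with DUSP4, a MAP kinase phosphatase, as the smallest (0.536). Of the 18 genes of the GDNF and CNTF families, 16 passed the filter, with 1 higher and 1 lower, and CLCF1 had the smallest (0.460).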

How the data were processed

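Gene expression was measured by strand-specific RNA sequencing of rRNA-depleted libraries from the hypothalamus of 20 goats, 5 per stage. The authors trimmed reads with fastp, aligned them with HISAT2 2.0.5 to the goat genome ARS1.2, assembled transcripts with StringTie 1.3.3b and deposited FPKM per gene. No read counts were used here. In genes under 0.5 FPKM, 10.9% of 4336 values lay within 0.05 of a whole multiple of the lowest value of their gene. Those values came from different libraries and were not scaled to depth, so the share cannot show whether whole reads can be recovered. The number of reads behind a value was not worked out. FPKM summed to between 260199 and 377479 per library. Groups and replicate numbers came from the sample titles, and each library is from another goat. A 0 is reported only as listed, since 8 of 8058 genes whose median was 5 FPKM or more had one. Gene IDs were named with the RefSeq table of ARS1.2, in which 20610 of 21071 matched. The 16771 genes that reached 0.1 FPKM in 5 or more libraries were tested.

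Values were transformed to log2(FPKM + 0.1), which understates changes of low genes, and a linear model of the 4 stages with a variance trend was fitted (limma 3.58.1, R 4.3.3). A fit to FPKM took the place of the DESeq2 test on read counts that the authors used for lncRNAs. The fit was tested on simulated data. Other values were computed with Python 3.11.15, pandas 2.3.3 and numpy 2.4.6, and figures drawn with matplotlib 3.10.9. The members and gene lists were chosen with earlier results of these data known. Named genes were the 7 members, the other neurotrophin ligands and receptors, the gene of each pathway list with the smallest adjusted p of the F-test, and the 3 genes most like each member. Alternatives were the pseudocount, the filter, a fit of the compared libraries alone, quantile or median-ratio scaling, no variance trend, library quality weights, the replicate block, the mapping rate given by the study, the adjusted p alone and each library left out. Leaving out 5 libraries by region markers or 3 by neuron markers was added after the data were seen. Results for some genes of these lists are not reported here.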

Additional observations from a re-analysis of the deposited data

Results flagged for a closer look

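Of the 28 sets of 5 libraries (7 genes in 4 stages), 6 held a library whose gap to the nearest of the others was over 0.71 of the whole range. For normally spread values chance gives about 1 in 20, which does not hold for sets mostly at or near 0, so the count of 6 cannot be set against it. NTF3 was flagged in each stage, with 0.480 FPKM in D1-5, 7.22 in M2-3, 0.0410 in M4-1 and 0.255 in M6-1, where most other libraries were listed at or near 0. At M4 the other 4 were at 0, so any value above 0 would have been flagged. NGFR was flagged at D1 for 4.04 FPKM in D1-1, against 0.125 in the next library. SORT1 was flagged at M2 for its lowest library, M2-1, with 22.7 FPKM against 47.9 in the next.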

How the results depend on the processing

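The count of members that were DEGs was 0 in all comparisons under all alternatives run, with the replicate block included (0 members), and the smallest adjusted p of any was 0.0811, for NGFR in M2 vs. D1 with library quality weights. Signs were not stable: of the 49 fold changes (7 genes in 7 comparisons), 25 changed sign under at least 1 of 34 alternatives. MAGED1 in the later stages vs. D1 was among them, though its value in the main fit was 0.60. With the mapping rate as a covariate, the log2 fold change of NTRK2 was 0.079 in M6 vs. D1, and in the later stages vs. D1 the values were -0.87 for NTF3, 0.23 for NTRK2 and 0.032 for NTRK3. With the replicate block and the mapping rate together they were -1.03 for NTF3, 0.12 for NTRK2 and -0.13 for MAGED1. In the same comparison NTF3 was -0.11 with library quality weights and -0.44 without the 3 libraries lowest in neuron markers, NTRK2 was 0.18 with quantile normalization, and BDNF was -0.36 and NGFR -0.00089 without the 5 libraries with striatum, cortex or thalamus markers. Leaving out 1 library at a time gave between -0.010 and 0.93 for BDNF, -0.12 and 0.66 for NTF3, and -0.062 and 1.19 for NGFR. The cause was not tested. Over all genes, library quality weights called 148 DEGs in M2 vs. D1 (0 without weights), 65 for M4 against D1 (9), 95 for M6 against D1 (1), 223 in the later stages vs. D1 (10) and 170 by the F-test (1). The other alternatives called at most 10, 32, 21, 48 and 17, of which the first, the second and the last came without D1-4 and the others without the 5 libraries with region markers. The replicate numbers did not pair the libraries: the deviations of same-numbered libraries from their stage means had a median r of -0.01, with 7 of 30 pairs over 0.1, and 3 of 20 libraries were most like one of their own number. Of the 21 genes most like a member, 7 stayed among the first 3 with Spearman's correlation and 8 with stage means removed. The order of the members by mean FPKM was also that with median-ratio scaling. The number of reads behind FPKM values near 0 was not worked out, which limits NTF3, NTF4 and NGFR most.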
